A study of Bubalus bubalis with 12 samples.

Results

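Keratins are the proteins of the intermediate filaments of epithelial cells. A type I (acidic) keratin pairs with a type II (basic) keratin, and the pair that a cell uses marks its kind of epithelium and its layer. In stratified squamous epithelium, such as that lining the rumen, the basal layer is known for KRT5 with KRT14 or KRT15. The cells above it are known for KRT4 with KRT13 in mucosae and KRT1 with KRT10 in cornified epidermis. Whether the rumen surface is cornified cannot be read from these pairs. KRT8 and KRT18 pair in simple epithelia, and hair keratins make up the hair shaft.

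The keratin genes described here were chosen by name, as the rows of the expression table whose symbol is KRT followed by a number and at most 1 letter. They were 35 of the 34037 genes listed, 20 of type I and 15 of type II, and the rule used no measured value. RNA from the ruminal wall of 12 adult Italian Mediterranean dairy buffaloes, taken at slaughter, had been sequenced, with 1 library per animal. TMR, a total mixed ration, was the whole feed of the 6 control animals, and the 6 treated animals received TMR with ryegrass green feed at 30% of the diet. Values are FPKM, counted fragments scaled by gene length and by the depth of the library, so that levels of different keratins can be set beside each other. The comparison addresses which genes of the ruminal wall respond to green feed.

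The counted fragments per animal ranged from 10531541 to 12948372, with no shallow library in either group. All 11 epithelial marker genes, of which DSG3, PERP and CLDN4 were the highest, were among the genes tested, and their summed level was 1722 to 2192 FPKM in the control and 1557 to 2398 FPKM in the treated animals. The libraries of control 6 and treated 6 stood apart from the other 10. They held 370 and 289 FPKM of ACTB (β-actin), against at least 596 FPKM elsewhere, and 117 and 63.5 FPKM of the desmosomal gene PKP1, against at least 256 FPKM elsewhere. GAPDH was also low there (340 and 333 FPKM, against at least 389 FPKM). Other genes were high in both: PPIA at 2385 and 2890 FPKM, against at most 1913 FPKM elsewhere, and DSG3 at 971 and 843 FPKM, against at most 830 FPKM. The low values were thus not shared by all housekeeping or epithelial genes. Results that rest on both animals are therefore also given without them. The summed smooth muscle markers reached 14.6 to 34.8 FPKM in the control and 5.16 to 25.9 FPKM in the treated animals, and the summed fibroblast markers 40.8 to 258 and 17.5 to 172 FPKM. In such bulk tissue, fewer cells of a type and less RNA per cell cannot be told apart.

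A small number of keratins made up nearly all of the signal of the named keratins. KRT13, KRT5 and KRT15 held 87.4% of the summed FPKM of the 35 genes, and the 7 keratins with a mean of at least 10 FPKM held 99.4%. An abundant gene of the type II keratin cluster, LOC102408195, has no name and may be a further keratin, and with it in the sum the share of the 3 genes would be 71.9%. The basal keratins KRT5 and KRT15 contributed 52.3%, the suprabasal keratins 42.2% and the simple epithelial keratins 5.45%. Most of the last share was KRT19 (4.75%), which is also a gene of basal cells. Of the 35 genes, 24 were above 0 in at least 1 animal, 13 were above 0 in every animal, and 11 were listed at 0 in all 12 animals. Keratin reads made up between 0.490% of the counted fragments in control 6 and 1.15% in treated 5.

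**Figure D1:**
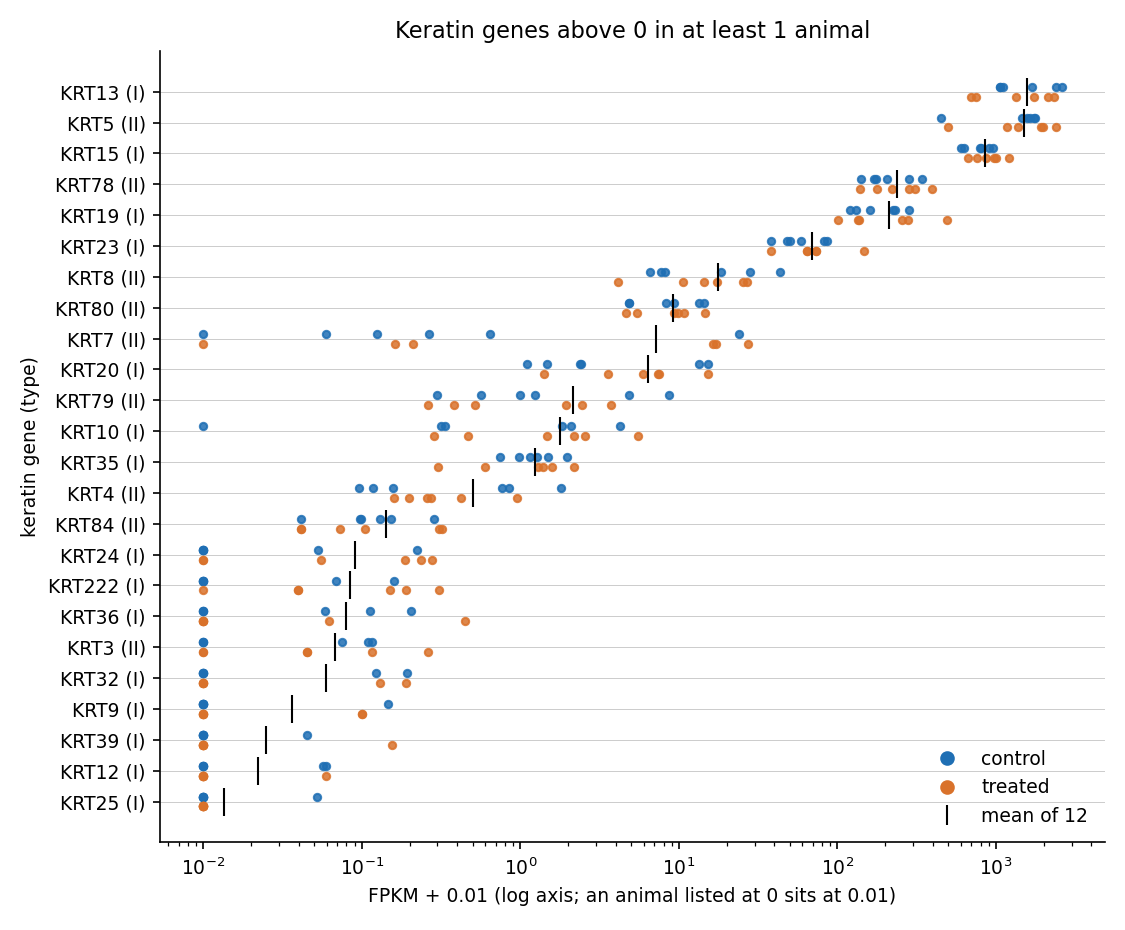
FPKM + 0.01 on a log axis (x) of the 24 keratins above 0 (y, with their type), 1 point per animal in blue (control) or orange (treated), with the mean of the 12 animals as a black bar. The 7 keratins at the top have means from 1572 FPKM (KRT13) down to 17.5 FPKM (KRT8), and the points of both diets overlap for every gene.

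KRT13 (gene 102390995), a type I keratin known from suprabasal cells of mucosae, had the highest mean, 1572 FPKM, and ranked 55 among all genes listed. Its level was 1058 to 2600 FPKM (median 1393) in the control animals and 695 to 2331 FPKM (median 1530) in the treated animals. The highest animals were control 5 and control 2, and the lowest treated 3 and treated 2, with wide overlap of the groups. The group means were 1650 ± 698 FPKM (SD, n = 6) for control and 1495 ± 691 FPKM (SD, n = 6) for treated animals.

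KRT5 (gene 102416163), the type II keratin of basal cells, followed with a mean of 1493 FPKM. It ranged from 451 to 1756 FPKM (median 1607) in control and from 498 to 2372 FPKM (median 1641) in treated animals. The lowest values in both groups were those of replicate 6, and no other animal was below 1179 FPKM. KRT13 was above KRT5 in 7 of 12 animals, so that the order of both did not hold beyond the spread between animals.

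KRT15 (gene 102391568), a type I keratin of basal cells and their precursors, had a mean of 847 FPKM and was the steadiest of the keratins tested. Its level lay between 603 and 959 FPKM (median 801) in control and between 665 and 1211 FPKM (median 918) in treated animals. Control 6 was the lowest and treated 5 the highest animal. On the log2 scale its SD within groups was 0.29, and 36.2% of the genes tested had a smaller one. KRT15 was below KRT5 in 10 of 12 animals, the exceptions being replicate 6 of both groups, where KRT5 reached only 0.748 and 0.657 times the level of KRT15. In the other animals this ratio lay between 1.37 and 2.33.

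KRT78 (gene 102392781), a type II keratin of stratified epithelium, had a mean of 236 FPKM, with 141 to 342 FPKM (median 190) in control and 138 to 394 FPKM (median 252) in treated animals. Treated 6 and control 5 were the highest, and the groups overlapped over most of their range. KRT19 (gene 102391899), the smallest type I keratin and a gene of simple and basal epithelial cells, was close to it with a mean of 213 FPKM. KRT19 ranged from 120 to 285 FPKM (median 193) in control and from 101.5 to 492 FPKM (median 196) in treated animals, with treated 5 well above the rest and treated 6 the lowest. KRT78 exceeded KRT19 in 7 of 12 animals, which gives no firm order, while KRT15 was above KRT78 in 12 of 12.

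KRT23 (gene 102392569), a type I keratin, had a mean of 68.7 FPKM, with 37.9 to 86.1 FPKM (median 54.4) in control and 38.0 to 147 FPKM (median 68.8) in treated animals. Treated 6 held the highest value, and the next treated animal was at 73.5 FPKM. KRT8 (gene 102393325), the type II keratin of simple epithelia, was lower and less even, with 6.53 to 43.1 FPKM (median 13.2) in control and 4.09 to 26.7 FPKM (median 15.9) in treated animals. Its highest value, in control 1, was 10.5 times its lowest, in treated 1. KRT23 was above KRT8 in 12 of 12 animals.

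**Figure D2:**
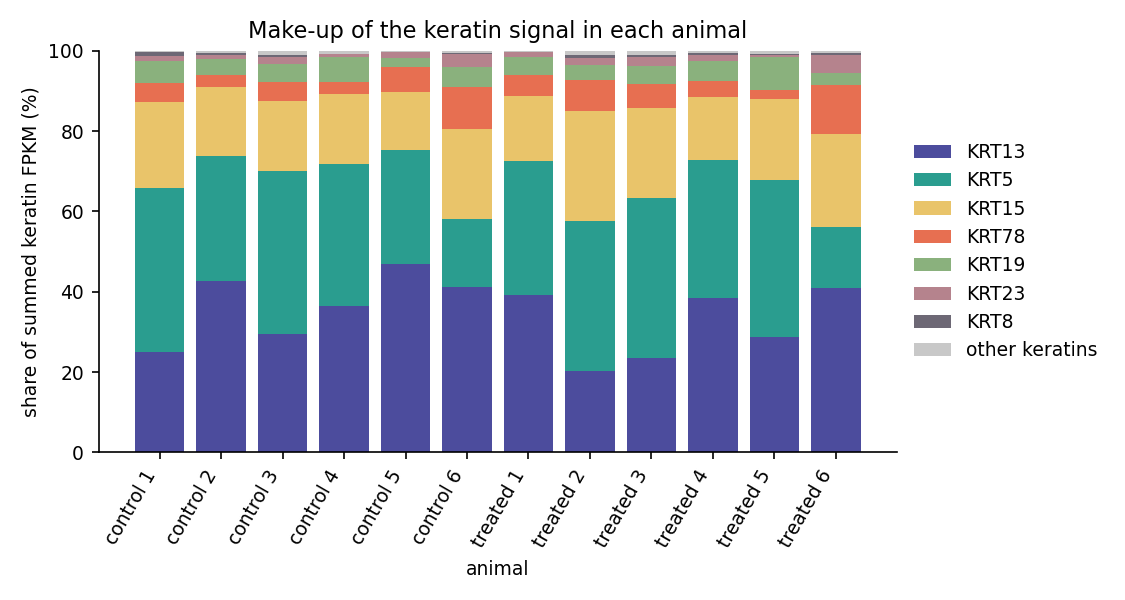
Share of the summed keratin FPKM (y, %) taken by each keratin in each of the 12 animals (x). KRT13 ranges from 20.4% (treated 2) to 46.9% (control 5), and KRT5 falls to 16.8% and 15.3% in control 6 and treated 6 against 28.5% to 40.9% in the other animals.

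Within single animals the make-up of the keratin signal shifted, as the plot of shares shows. KRT13 was the highest keratin in 7 animals and KRT5 in 5. The ratio of KRT13 to KRT15, a suprabasal over a basal keratin, ran from 1.18 to 3.27 (median 1.96) in control and from 0.745 to 2.45 (median 1.59) in treated animals. In treated 2 alone KRT13 was below KRT15. The sum of the type I keratins was 1.12 to 2.57 times that of the type II keratins, with the highest ratios in control 6 (2.55) and treated 6 (2.57), and at most 1.86 without those 2 animals. Both diets covered nearly the same range of this ratio. If LOC102408195 is counted as a type II keratin, the ratio runs from 0.651 to 1.56 (median 0.946), so that the excess of type I over type II holds for the named genes only.

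The usual partners of some abundant keratins were low or listed at 0. KRT4, the type II partner of KRT13 in mucosa, had a mean of 0.494 FPKM and 2 to 51 read pairs per animal. KRT10, the type I keratin of cornifying epidermal cells, had a mean of 1.76 FPKM, while its partner KRT1 was listed at 0 in all 12 animals, as was KRT2, another keratin of cornified epidermis. KRT18, the partner of KRT8, was also listed at 0, with 0 read pairs counted in each of the 12 animals. The authors kept only fragments above a minimum mapping quality, so that the level of a keratin with near-identical copies in the genome is uncertain, and a value of 0 does not show that the gene was silent. A further 20 keratin symbols, KRT14, KRT16, KRT17 and KRT6A among them, matched no row by name and were not counted as keratins here. Of these, KRT74, KRT33A and KRT38 are RefSeq names, by gene ID, of rows with LOC names. Those rows held 4, 1 and 0 read pairs over the 12 animals. Others may also be listed under LOC names.

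By gene order in the RefSeq annotation of another buffalo assembly (NDDB_SH_1), to which all 35 genes were matched by gene ID, 19 of the 20 type I genes lay in 1 cluster. The 15 type II genes lay in a second cluster, together with KRT18. Between the named keratins of both clusters lay 62 other genes, of which 48 have a row in the expression table and 14 were not analysed here. LOC102408195, which lies between KRT82 and KRT5 in the type II cluster, had a mean of 964 FPKM, with 372 FPKM in its lowest animals and 1839 FPKM in treated 1, and none of the other 47 genes with a row reached a mean of 1 FPKM. It may be a keratin with no symbol, which was not settled here, so it was not counted as one. Its log2 fold change between the diets was 0.33 (SE 0.42, nominal limma p = 0.451, exact permutation p = 0.506). Gene positions on the build used by the authors (UOA_WB_1) and sequences were not used here.

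**Figure D3:**
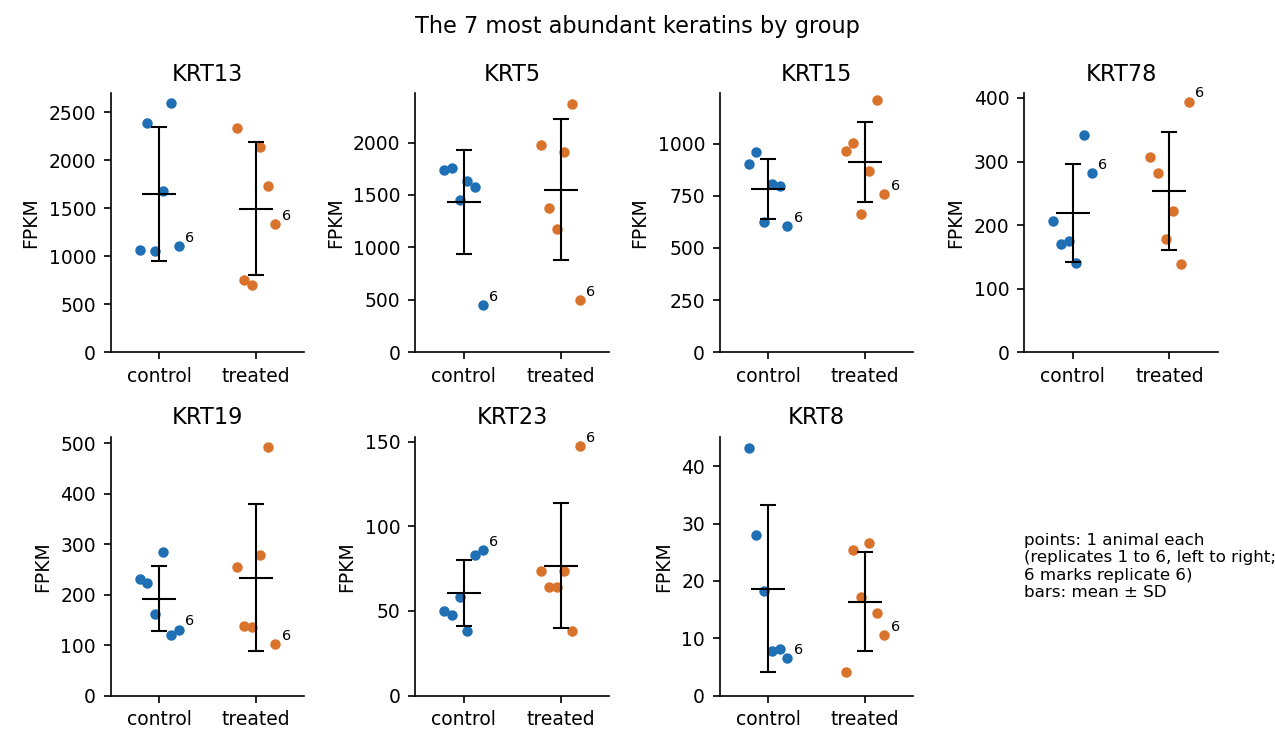
FPKM (y) of the 7 keratins with a mean of at least 10 FPKM in the control and treated group (x), with 1 point per animal in order of replicate number, 6 marking replicate 6, and bars for the mean ± SD. KRT5 is lowest in both replicates 6, KRT23 is highest in them, and the groups overlap in each panel.

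The next 6 keratins had means between 1 and 10 FPKM, and most were uneven between animals of the same diet. KRT80 (gene 102391655), a type II keratin of differentiating epithelium, was the most even of them, with 4.86 to 14.3 FPKM (median 8.81) in control and 4.63 to 14.5 FPKM (median 9.60) in treated animals. Both groups covered nearly the same range.

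KRT7 (gene 102391325), a type II keratin of glandular and transitional epithelia, was present at a clear level in only 4 animals. Treated 5 had 533 read pairs, control 3 had 511, treated 2 had 337 and treated 3 had 323, which correspond to 27.3, 24.0, 17.01 and 16.3 FPKM. The other 8 animals had 0 to 13 read pairs, with 0 in control 4 and treated 6. The 4 animals came from both diets, and no animal lay between 13 and 323 read pairs. By group, KRT7 ranged from 0 to 24.0 FPKM (median 0.185) in control and from 0 to 27.3 FPKM (median 8.27) in treated animals. Its log2 SD within groups, 4.28, compares with a median of 0.36 over all genes tested.

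KRT20 (gene 102392254), a type I keratin of gut epithelium, urothelial surface cells and Merkel cells, ranged from 1.09 to 15.3 FPKM (median 2.38) in control and from 1.40 to 15.2 FPKM (median 6.66) in treated animals. Control 2, control 4 and treated 4 were the highest, with 343 to 372 read pairs. Of 5 Merkel cell markers, ATOH1 and INSM1 were listed at 0 in all animals, CHGA and SYP stayed below 0.22 FPKM, and SOX2 was at 28.5 to 55.9 FPKM. Of 4 mesothelial markers, WT1 and LRRN4 were listed at 0, UPK3B was at 1.05 to 3.40 FPKM, and MSLN was not analysed here.

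KRT79 (gene 102392469), a type II keratin known from the ducts of hair follicles, ranged from 0.287 to 8.62 FPKM (median 1.11) in control and from 0.253 to 3.71 FPKM (median 1.22) in treated animals. Control 4 and control 3 were the highest. KRT10 (gene 102391599) ranged from 0 to 4.25 FPKM (median 1.07) in control and from 0.273 to 5.48 FPKM (median 1.82) in treated animals. Treated 4 held 133 and control 2 held 102 read pairs of KRT10, and control 6 held 0.

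**Figure D4:**
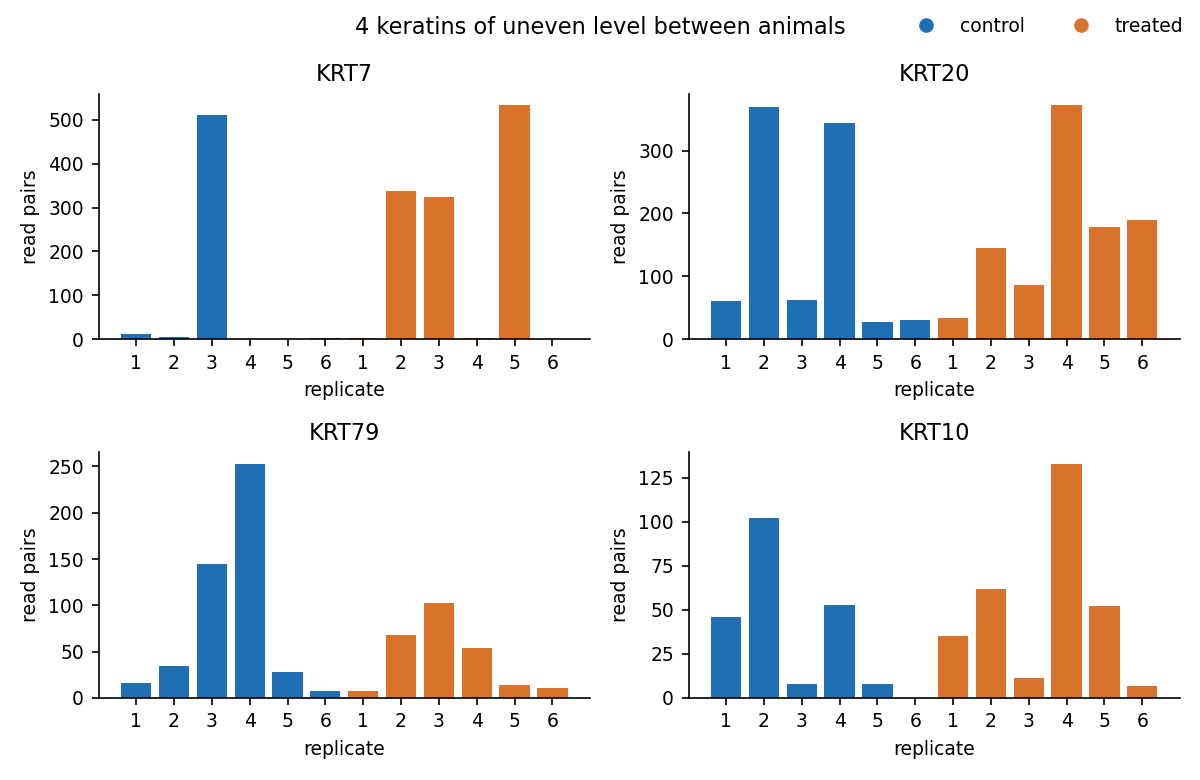
Read pairs (y) of KRT7, KRT20, KRT79 and KRT10 in each animal (x, replicates 1 to 6 of the control group in blue and of the treated group in orange). KRT7 reaches 323 to 533 read pairs in control 3 and treated 2, 3 and 5 and at most 13 elsewhere, and the high animals differ from keratin to keratin.

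Of the hair keratins, KRT35 (gene 102390116) alone had a mean above 1 FPKM. It was above 0 in all 12 animals, at 0.731 to 1.95 FPKM (median 1.20) in control and 0.291 to 2.17 FPKM (median 1.33) in treated animals, and treated 6 was the lowest with 8 read pairs. KRT84, another hair keratin, had 1 to 10 read pairs per animal. Among 5 hair follicle markers, DSG4 was listed at 0 and the transcription factor HOXC13 was at 0.272 to 0.713 FPKM. FOXN1, the only one tested, was at 0.083 to 1.19 FPKM, and LHX2 and TCHHL1 reached at most 0.222 and 0.0662 FPKM. KRT4 ranged from 0.0854 to 1.81 FPKM in control and from 0.149 to 0.940 FPKM in treated animals, with control 4 the highest.

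At the lower end, 10 keratins were above 0 in some animal but had no more than 10 read pairs in any, and were not tested. For KRT32, KRT9, KRT12 and KRT25, no animal had more than 3 read pairs, the level below which a value was not told from 0. KRT84, KRT24, KRT222, KRT36, KRT3 and KRT39 exceeded 3 read pairs in at least 1 animal, with highest counts of 10, 6, 10, 9, 7 and 5. The 11 genes listed at 0 throughout were KRT1, KRT2, KRT18, KRT26, KRT27, KRT28, KRT40, KRT71, KRT72, KRT77 and KRT82, most of which belong to the epidermis or the hair follicle.

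No difference between the diets was detected for a keratin gene. Of the 14 keratins that passed the filter of 40 scaled read pairs in at least 1 animal, 0 had a nominal limma p-value below 0.05, against 1.27% of the 12760 genes tested (0.799% higher and 0.47% lower in treated animals). After Benjamini-Hochberg adjustment over all genes tested, limma called 0 keratins and 0 genes in all, with a smallest adjusted p of 1.00. At the nominal level, voom on the read pairs and the exact rank-sum test also called 0 keratins, and with no filter on low values limma called 0 of the 24 keratins above 0. The exact permutation test over the 924 assignments of the 12 animals also gave no keratin with p below 0.05, with values from 0.214 to 0.976 and a smallest possible p of 0.00216. For 0 of the 14 did the groups not overlap, against 0.0549% of the genes tested. The fold changes were above 0 for 9 and below 0 for 5 keratins, and their median was 0.11, beside 0.01 over all genes tested.

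**Figure D5:**
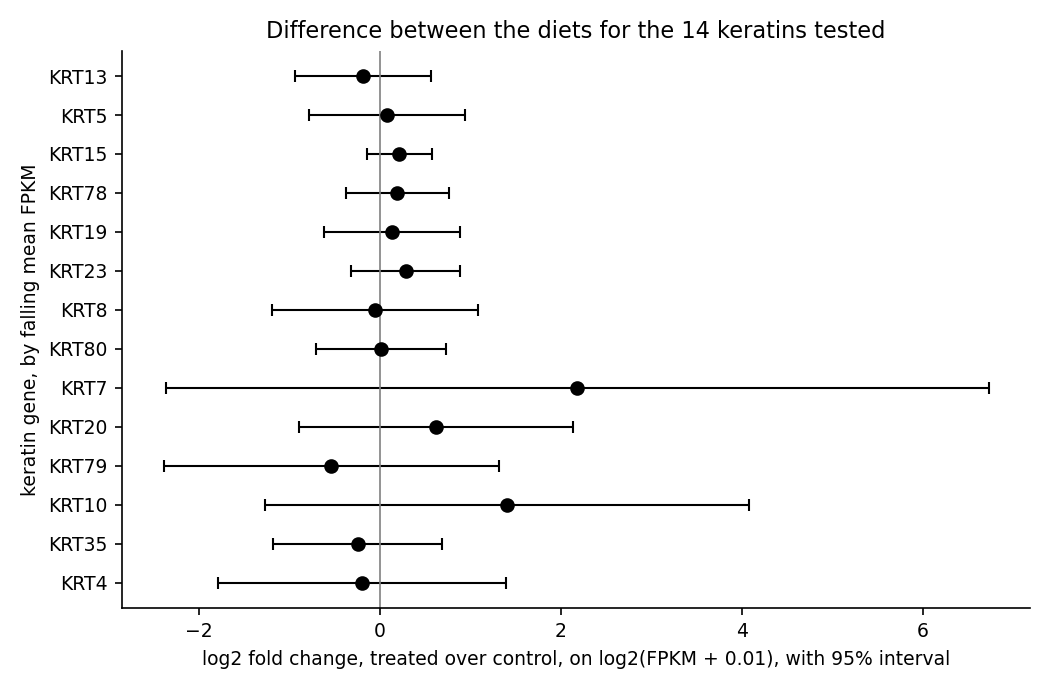
Log2 fold change of treated over control on log2(FPKM + 0.01) (x) with its 95% interval, for the 14 keratins tested in order of falling mean FPKM (y). Every interval includes 0, from the narrow one of KRT15 (-0.15 to 0.58) to that of KRT7 (-2.37 to 6.72).

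KRT15 had the smallest p-value of the 14. Its log2 fold change was 0.22 (SE 0.17, 95% interval -0.15 to 0.58, nominal limma p = 0.222, exact permutation p = 0.214), from means of 782 ± 144 FPKM (SD, n = 6) and 913 ± 194 FPKM (SD, n = 6), with 4 of 6 treated animals above the control median. KRT10 came next at 1.41 (SE 1.25, nominal limma p = 0.278, exact permutation p = 0.381). This value rests on control 6, which is listed at 0: without that animal the log2 fold change was 0.27, and with a pseudocount of 1 FPKM it was 0.35. KRT7 followed at 2.18 (SE 2.12, nominal limma p = 0.321, exact permutation p = 0.387), with an interval of -2.37 to 6.72. It moved between 1.24 (without control 4) and 3.55 (without treated 6) when 1 animal was left out, and was 3.34 without both replicates 6.

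Among the abundant keratins, the log2 fold change was -0.19 (95% interval -0.94 to 0.56) for KRT13 and 0.08 (-0.78 to 0.94) for KRT5. Without both replicates 6, KRT5 stood at 0.07 (SE 0.19) and KRT23 at 0.19 (SE 0.22). Without treated 6 alone, the animal with the highest KRT23, KRT23 stood at 0.07. The remaining abundant keratins gave 0.19 (-0.38 to 0.76) for KRT78, 0.14 (-0.61 to 0.89) for KRT19, 0.28 (-0.32 to 0.89) for KRT23 and -0.05 (-1.19 to 1.09) for KRT8. KRT80 was at 0.01, KRT20 at 0.62, KRT79 at -0.54, KRT35 at -0.24 and KRT4 at -0.20, each with a nominal limma p of at least 0.391. With 1 animal left out, KRT20 moved between 0.29 (without control 5) and 1.05 (without control 2) and KRT79 between -0.99 (without control 6) and -0.02 (without control 4). With the smooth muscle and fibroblast score as a covariate, KRT4 was at -1.15.

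The spread between animals fed alike set the width of these intervals. The log2 SD within groups was above the median of all genes tested for 13 of the 14 keratins, KRT15 being the exception, and its median over the keratins was 0.81 against 0.36 over all genes. The SD of KRT5, 0.79, was larger than that of 90.3% of the genes tested, and it rests on both replicates 6. Without them it was 0.30, larger than that of 56.4% of the genes, and all 14 keratins were then above the median over genes of 0.27. Those of KRT10 (2.51) and KRT79 (1.73) were larger than 99.5% and 98.8% of them. The SD includes the counting error, which is larger for keratins of few reads.

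Some keratins varied together over the 12 animals. Among 6 keratins with a mean of at least 10 FPKM, 15 pairs were compared on log2(FPKM + 0.01). KRT5 was left out because replicates 6 form a separate low pair for it, a choice made on its values. The adjustment covers only the 15 pairs kept. KRT78 and KRT23 were high and low in the same animals (Pearson r = 0.895, permutation p = 0.00011, adjusted 0.00165 over the 15 pairs, and Spearman rho = 0.895, permutation p = 0.00018, adjusted 0.0027). The relation held without the 2 animals farthest from the median of KRT78 (r = 0.851), without both replicates 6 (r = 0.864), and within the control (r = 0.925) and treated (r = 0.874) groups. KRT19 and KRT23 ran in opposite directions (r = -0.748, permutation p = 0.00514, adjusted 0.0386), but the rank correlation (rho = -0.720, permutation p = 0.0107) did not pass the adjustment (0.0805). Without the 2 animals farthest from the median of KRT19, r was -0.541, and without both replicates 6 it was -0.641. Within the groups it was -0.976 (control) and -0.748 (treated). The other 13 pairs did not pass the adjustment by either measure.

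Genes that act with keratin filaments were taken from a list of 20, of which 18 were tested. Most of them join filaments to desmosomes and hemidesmosomes, bind or bundle them, or crosslink proteins of the cell envelope. A few, such as KRTCAP2, a subunit of the oligosaccharyltransferase, are on the list by name and have other roles. By nominal limma p, 1 of the 18 rose and 0 fell in treated animals, and 0 passed the adjustment, beside 0.799% higher and 0.47% lower over all genes tested. The median log2 fold change of the list was 0.05, and its summed level was 1798 to 2561 FPKM in control and 1590 to 2869 FPKM in treated animals. The highest were TGM3, a transglutaminase of the cell envelope (mean 569 FPKM), DSP, the desmoplakin that anchors keratin to desmosomes (553 FPKM), and PKP1 (288 FPKM), and the log2 fold changes of these were -0.36, 0.07 and -0.06. The summed level hides that several partners besides PKP1 were lowest in control 6 and treated 6. Among them were PKP3 (114 and 110 FPKM, at least 218 FPKM elsewhere), PPL (14.9 and 13.6, at least 33.8) and PLEC (11.6 and 6.96, at least 26.0). Others did not follow: TGM3 was at 886 and 853 FPKM in these animals, and PKP2 was highest there. The cause was not tested.

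The gene that passed at the nominal level was TCHH (gene 102397364), trichohyalin, which binds keratin filaments in the hair follicle and in some oral epithelia. Its control values were 6.71, 2.57, 5.37, 2.82, 12.01 and 4.93 FPKM, and its treated values 5.50, 9.02, 7.95, 9.62, 11.8 and 9.73 FPKM, in order of replicate number. Apart from control 5, the highest of all, and treated 1, the treated animals were above the control animals. The log2 fold change was 0.80 (SE 0.33, nominal limma p = 0.029, adjusted 1.00), and the exact permutation p was 0.061. Without both replicates 6 the log2 fold change was 0.76 and TCHH was no longer called, which was also so without control 2 (0.61), control 4 (0.64) or treated 5 (0.71).

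Of 15 intermediate filament genes other than keratins, 7 were tested. LMNA, which encodes nuclear lamins (mean 121 FPKM), VIM, the vimentin of mesenchymal cells (69.3 FPKM), and LMNB2 (14.3 FPKM) were the highest, and NEFL and NEFM, of neurons, were listed at 0. LMNA was at 43.9 FPKM in both control 6 and treated 6, and at least 105 FPKM elsewhere. By nominal limma p, 0 rose and 1 fell in treated animals, and 0 passed the adjustment, beside 0.799% higher and 0.47% lower over all genes tested. The median log2 fold change of the 7 was -0.12. The gene that fell was DES, the desmin of muscle (log2 fold change -1.04, SE 0.42, nominal limma p = 0.027, exact permutation p = 0.052). Its control values were 2.64, 4.68, 3.58, 1.29, 2.31 and 4.83 FPKM and its treated values 0.554, 1.03, 2.17, 3.26, 1.12 and 1.81 FPKM. The groups overlapped, with control 4 low and treated 4 high in its group, and DES was not called without both replicates 6, where its log2 fold change was -0.97, or without any 1 of control 2, 3 and 6 and treated 1, 2 and 5 (-0.98 to -0.77). The 7 smooth muscle markers tested all had a log2 fold change below 0 (median -0.78), as had the 6 fibroblast markers (median -0.66). The median over all genes tested was 0.01. Genes of 1 cell type can vary together, so these signs are not separate results. Of both lists, DES alone had a nominal limma p below 0.05. With the mean level of the smooth muscle and fibroblast markers as a covariate, the log2 fold change of DES was -0.42 and it was no longer called. DES is itself 1 of these 15 markers.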

How the data were processed

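Ruminal wall RNA of 6 control and 6 treated buffaloes was sequenced as stranded total RNA libraries. The authors trimmed reads with Trimmomatic 0.39, aligned them with STAR 2.5.2b to UOA_WB_1, counted fragments per gene by strand with featureCounts 2.0.0 above a minimum mapping quality, and deposited FPKM. The tool and gene lengths behind the FPKM are not given in the sources used here. Groups and replicate numbers are those of the sample labels. The table holds 16 columns, of which 4 match no sample and were not used.

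Within a gene, FPKM step by the worth of 1 read pair in each animal, from which reads and gene lengths were worked out. All 22972 genes above 0 then had a whole-number length (tolerance 0.0001), 22472 of them before a common divisor was allowed for. The depth of 10531541 to 12948372 counted fragments sets the precision. A value of 3 read pairs or fewer was not told from 0, which covers counting error only.

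Genes with at least 40 read pairs (scaled to the mean depth) in at least 1 animal were tested, 12760 in all, with limma 3.58.1 in R 4.3.3 (lmFit, eBayes with trend) on log2(FPKM + 0.01). For a low gene with an animal at 0, a fold change on this scale depends on the pseudocount. That of KRT10 was 1.41, and 0.85 and 0.35 with pseudocounts of 0.1 and 1 FPKM. Adjustment was by Benjamini-Hochberg over all genes tested. Following the study, a nominal p below 0.05 was taken as a call. A single keratin was also tested by exact permutation (two-sided, on mean log2 values) over all 924 assignments of the animals, and correlations by a two-sided permutation test with 100000 resamples. The methods were tested on simulated data. The chi-square per gene between libraries was at least 16.7 over the 66 pairs, so that no library was a repeat of another. Tools were Python 3.11.15, numpy 2.4.6, scipy 1.17.1, pandas 2.3.3 and matplotlib 3.10.9.

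The keratins and the gene lists were chosen with earlier results of these data known. The rule named keratins with a mean of at least 10 FPKM, those with a nominal p below 0.05 and the 3 with the smallest p. Their values are given as the lowest, median and highest of each group, and those of KRT7 and the remaining keratins also as read pairs or ranges. Of the partner and other filament lists, the genes with a nominal p below 0.05 and the 3 of highest level were named, and LOC102408195 was named after its values were seen.

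The alternatives were pseudocounts of 0.1 and 1 FPKM, no filter, a filter of 0.1 FPKM in 6 animals, an exact rank-sum test, median-ratio scaling, robust empirical Bayes, the replicate number as a block, the mean log2 level of 15 smooth muscle and fibroblast markers as a covariate, voom on the reads, and each animal left out. Leaving out both replicates 6, adding LOC102408195 to the keratin sums and leaving KRT5 out of the correlations were chosen after seeing the data.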

Additional observations from a re-analysis of the deposited data

Results flagged for a closer look

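In 3 of 26 groups of 6 animals (13 keratins with a mean of at least 1 FPKM, in 2 diets), 1 animal lay far from the other 5 by Dixon's test at the 95% level, which chance gives in about 1 of 20 groups. KRT5 of control replicate 6 was 451 FPKM, while the next animal was at 1453 FPKM, a gap of 0.768 of the range of the group. KRT23 of treated replicate 6 was 147 FPKM, and the next animal was at 73.5 FPKM (gap 0.675 of the range). Both animals belong to the libraries with low ACTB and PKP1, and the part of those libraries in these values was not tested. KRT7 of control replicate 3 was 24.0 FPKM, against 0.629 FPKM in the next control animal (gap 0.974 of the range). Among treated animals 3 of 6 had a KRT7 level of 16.3 to 27.3 FPKM, so that no single treated animal stood apart.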

How the results depend on the processing

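The count of keratins with a nominal p below 0.05 was 0 in the 11 alternatives that change a setting or leave out both replicates 6 and in the 12 that leave out 1 animal. Of 322 keratin log2 fold changes under these 23 alternatives, 293 kept their sign and 29, of 7 keratins, did not. With the exact rank-sum test, where the value is a difference of medians, it was 0.16 for KRT13, -0.024 for KRT19, 0.37 for KRT8 and 0.15 for KRT35. With the smooth muscle and fibroblast score it was -0.039 for KRT5, 0.32 for KRT8 and -0.25 for KRT80, and without both replicates 6 it was 0.10 for KRT35. With 1 animal left out, values ran from -0.35 to 0.0032 for KRT13, -0.23 to 0.38 for KRT5, -0.12 to 0.34 for KRT19, -0.28 to 0.30 for KRT8, -0.15 to 0.18 for KRT80, -0.46 to 0.11 for KRT35 and -0.58 to 0.27 for KRT4. The cause was not tested.

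Partner genes called numbered 2 with the replicate block and with the smooth muscle and fibroblast score, 0 by the rank-sum test and without both replicates 6, and 0 to 2 with 1 animal left out. TCHH lost its call without control replicate 2 or 4, or treated replicate 5. Other filament genes called numbered 0 with the score and without both replicates 6, and 0 to 1 with 1 animal left out. DES lost its call without control replicate 2, 3 or 6, or treated replicate 1, 2 or 5. Over all genes, 162 were called, against 562 of 22972 with no filter, 301 of 16450 with the FPKM filter, 326 with the replicate block, 297 with the score, 317 without both replicates 6, and 144 to 331 with 1 animal left out (331 without treated replicate 6).

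Same-numbered animals are different animals. Their deviations correlated between -0.01 and 0.41 (mean 0.21), against -0.35 to 0.21 (mean -0.04) for other pairs. Replicates 3 (0.38) and 6 (0.41) lay above that range, and replicates 1 and 5 were below 0.1. Of 6 control animals, 3 correlated best with their own number. These values alone do not settle whether the numbers pair the animals. The paper describes random assignment to the groups, with regard to parity and milk production, and no pairing. Animals of the same number here carry different numbers in the sample titles. The main test took the animals as unpaired, and the replicate block is a check of the setting, not a model of a described pairing. With the replicate block the smallest keratin p-values were 0.062 (KRT10) and 0.097 (KRT15), by limma. Depth limits statements on keratins under about 40 read pairs, which were not tested.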
